A study of Mus musculus with 4 samples.

Results

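Igf2bp2, Prrc2b and Eef1b2 encode proteins that bind mRNA or take part in translation, and each had 1 alternatively spliced exon in a table of splicing events from mouse endothelial cells (ECs). The 3 events were every row of the table for these genes, out of 1075 events in 869 genes. The genes were chosen by their measured values: the authors kept only events whose exon inclusion differed by more than 5 points between every control and every NOVA2-overexpressing library, and the 3 genes were then selected on that list. For this reason the inclusion levels and their differences are given as a description, with no test.

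The mouse EC line (moEC) had been transduced with lentivirus and kept under puromycin. Control ECs carried the empty HA vector, and NOVA2-overexpressing ECs carried human NOVA2 with an HA tag, driven by the CMV promoter of the pLenti-GIII-CMV vector. The NOVA2-overexpressing ECs for splicing analysis were grown sparse, and no density is given for the control ECs. Each group had 2 libraries of total RNA, and the labels did not say whether the 2 came from separate cultures. A p from the limma test of coverage therefore measures only the spread between these libraries, which may be technical. A p from Fisher's exact test on summed reads covers counting error only. The reads behind the 1075 events summed to 124374 and 155864 in the control libraries and to 193436 and 182795 in the NOVA2-overexpressing ones. The table held no expression levels, so that neither the NOVA2 transgene nor markers of ECs could be checked here.

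NOVA2 is an RNA-binding splicing factor best known from neurons and also found in ECs. It recognises YCAY, a 4-base motif in which Y is C or U, mostly where several copies lie close together in an exon or the introns beside it. Clusters in or before an exon are known for skipping, and clusters after it for inclusion. The 3 genes act later in the life of an mRNA. IGF2BP2 binds mRNAs and influences their stability, localisation and translation. PRRC2B is a large, mostly disordered protein that associates with translation initiation factors. EEF1B2 is the beta subunit of elongation factor 1, which reloads the factor that brings aminoacyl-tRNA to the ribosome with GTP.

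The listed Igf2bp2 exon (ENSMUSG00000033581.10) is 69 nt long and lies on the minus strand at chr16:22070380-22070448 of mm9. Its neighbouring introns are 5641 nt (before) and 2047 nt (after). Its sequence is printed because it carried the densest YCAY motifs among the 3 exons. Below, capitals mark the YCAY motifs in DNA letters (TCAT, with its variant TCAC, as well as CCAT, with its variant CCAC) in the exon and in 100 nt of intron on each side (chr16:22070449-22070548 before it and chr16:22070280-22070379 after it), written 5′ to 3′ on the transcribed strand.
Igf2bp2 intron before: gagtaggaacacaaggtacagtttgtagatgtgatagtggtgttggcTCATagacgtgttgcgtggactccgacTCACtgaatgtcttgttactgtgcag
Igf2bp2 exon: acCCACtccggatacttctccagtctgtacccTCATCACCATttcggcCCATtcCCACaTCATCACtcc
Igf2bp2 intron after: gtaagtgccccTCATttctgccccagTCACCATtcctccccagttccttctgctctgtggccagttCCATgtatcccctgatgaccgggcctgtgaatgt

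The listed Prrc2b exon (ENSMUSG00000039262.9) is 2061 nt long, on the plus strand at chr2:32068407-32070467, between introns of 595 nt and 1098 nt. Only 2 of the 549 listed cassette exons were longer, and their median length was 105 nt. The 100 nt of intron on each side (chr2:32068307-32068406 and chr2:32070468-32070567) are shown for comparison with Igf2bp2, with YCAY motifs in capitals.
Prrc2b intron before: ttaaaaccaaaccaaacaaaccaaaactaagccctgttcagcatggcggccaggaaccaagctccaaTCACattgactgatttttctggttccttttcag
Prrc2b intron after: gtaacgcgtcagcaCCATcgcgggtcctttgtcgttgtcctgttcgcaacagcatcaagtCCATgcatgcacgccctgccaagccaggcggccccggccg

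The listed Eef1b2 event (ENSMUSG00000025967.9) is a microexon of 5 nt on the plus strand at chr1:63224597-63224601. Its introns, as the table defines them, are 731 nt and 411 nt long. The stretch from 60 nt before it to 30 nt after it (chr1:63224537-63224631) is shown because so short an exon leaves few bases of its own in a read. Here the capitals mark the microexon itself.
Eef1b2 microexon: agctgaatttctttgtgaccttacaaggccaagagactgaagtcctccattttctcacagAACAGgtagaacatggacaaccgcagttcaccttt

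The Igf2bp2 exon was included in nearly all transcripts of control ECs and was skipped in a measurable share of those of NOVA2-overexpressing ECs. Its percent spliced in (PSI, the share of junction reads that include the exon) was 99.81% and 99.85% in the control libraries and 90.40% and 92.69% in the NOVA2-overexpressing ones. Both control values lay within a few hundredths of a point of each other and above both values under NOVA2. The mean was 99.83% ± 0.0283 (SD, n = 2) against 91.5% ± 1.62, a difference (dPSI) of -8.29 points, and the closest libraries of the 2 groups were 7.12 points apart.

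The same values can be read as skipping. The junction that joins the neighbouring exons directly held 2 and 2 reads in control ECs and 139 and 98 reads in NOVA2-overexpressing ECs. The skipped share was 0.19% and 0.15% against 9.60% and 7.31%, and the exact 95% (Clopper-Pearson) intervals of the raw reads were 0.0227 to 0.676%, 0.0188 to 0.558%, 8.07 to 11.2% and 5.97 to 8.83% in the same order. Over the summed reads, with the 2 inclusion junctions averaged, 4 of 2357 reads skipped the exon in control ECs and 237 of 2790 in NOVA2-overexpressing ECs. That the groups lie apart was fixed by the filter on the table, so the intervals give only the counting precision of each library. All such intervals cover counting error only, since PCR copies of a molecule were not told apart.

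This event was among the best covered in the table. Its total of 2129, 2581, 2758 and 2585 junction reads (control 1, control 2, NOVA2 1, NOVA2 2) ranked 2 of 1075 by the shallowest library. The absolute dPSI ranked 780 of 1075, and it stayed under the 10 points that the study set for its list. Of all events in the table, 53.1% passed 10 points in either direction and 33.0% with a higher value under NOVA2. These shares pool the 549 cassette exons with 311 introns and 215 alternative splice sites. They are not the shares of cassette exons alone, more of which were lower than higher under NOVA2. Of the 3 events described here, Prrc2b and Eef1b2 passed 10 points, both higher, which is to be read with the choice of genes on this contrast in mind.

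The Prrc2b exon was the reverse case, an exon that most control transcripts lacked and that was included more in NOVA2-overexpressing ECs. Its PSI was 33.42% and 32.18% in the control libraries and 45.00% and 49.97% in the NOVA2-overexpressing ones. The groups did not overlap, and the closest libraries were 11.58 points apart. The mean was 32.8% ± 0.877 (SD, n = 2) against 47.5% ± 3.51, a dPSI of 14.7 points.

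The 3 junctions behind these values were counted separately. The upstream inclusion junction held 100 and 123 reads in control ECs and 198 and 218 under NOVA2. The downstream inclusion junction held 134 and 159 against 251 and 235, and the exclusion junction 236 and 301 against 278 and 230. These raw numbers carry the unequal depth of the libraries. Per 100000 of the summed coverage of all listed events (defined with its test further on), the upstream junction held 117 and 115 reads in control ECs against 147 and 171 under NOVA2, the downstream junction 157 and 149 against 186 and 185, and the exclusion junction 276 and 281 against 206 and 181. At equal depth, inclusion reads were thus higher and exclusion reads lower in both NOVA2-overexpressing libraries. From a single inclusion junction, the dPSI was 15.7 points for the upstream one and 13.6 points for the downstream one. Both values use the same exclusion reads and are parts of the PSI that chose the event. Their likeness is therefore no independent check. The exact 95% intervals of the raw PSI were 28.3 to 38.3% and 27.6 to 36.5% in control ECs and 40.2 to 49.1% and 44.9 to 54.3% under NOVA2, and they too give counting precision only.

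**Figure D1:**
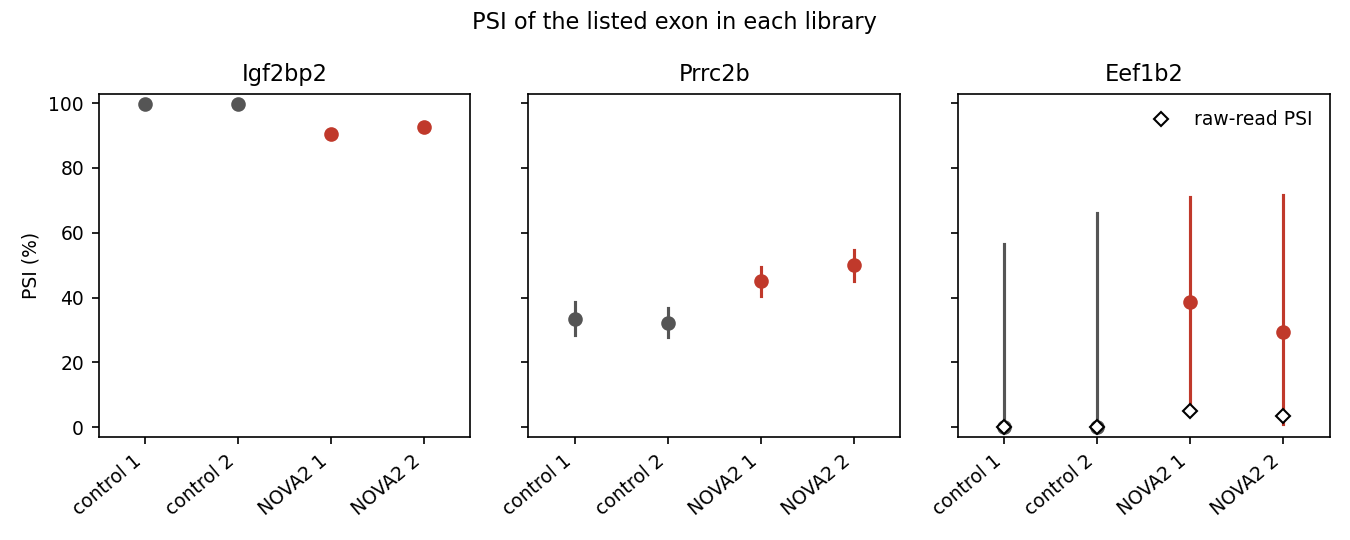
PSI (%) of the listed exon in each of the 4 libraries. Filled points are the deposited PSI, vertical lines the exact 95% interval of the raw reads carried to the scale of the deposited PSI, and open diamonds (Eef1b2) the PSI of the raw reads. The Igf2bp2 points lie between 99.81 and 99.85% in control and between 90.40 and 92.69% in NOVA2-overexpressing ECs, the Prrc2b points between 32.18 and 33.42% and between 45.00 and 49.97%, and the Eef1b2 intervals of all 4 libraries overlap.

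Eef1b2 headed the whole table, with the largest absolute dPSI of the 1075 events, and had the thinnest reads of the 3. Its deposited PSI was 0% in both control libraries and 38.67% and 29.42% in the NOVA2-overexpressing ones, a mean of 34.0% ± 6.54 (SD, n = 2) and a dPSI of 34.0 points. The raw reads behind these values were few. The inclusion reads numbered 0 and 0 in control ECs and 2 and 1 under NOVA2, beside exclusion reads of 35 and 24 against 37 and 28. The raw PSI was therefore 0% and 0% against 5.13% and 3.45%, a mean difference of 4.29 points.

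The step from 3 raw inclusion reads to a mean PSI of 34.0% was the mappability correction of vast-tools, which weights each junction by how many of its read positions can be placed uniquely. Under it, the 2 and 1 raw inclusion reads became 15.08 and 8.53 corrected reads, and 37 and 28 exclusion reads became 23.92 and 20.47. Both libraries gave the same factor, which multiplied the odds of inclusion by 11.7. This was the largest factor among the 549 cassette exons. The next microexon, in Spna2, had 1.75, the 12 microexons had a median of 1.46, and the 537 longer exons had a median of 1.00 and a range of 0.0884 to 3.86. The factor was 0.999 for Igf2bp2 and 1.01 for Prrc2b, so that their deposited PSI was close to the PSI of their raw reads, which for Prrc2b was 33.1% and 31.9% in control ECs and 44.7% and 49.6% under NOVA2.

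With so few reads a difference in Eef1b2 was not detectable at this depth. The exact 95% intervals of the raw PSI were 0 to 10.0% and 0 to 14.2% in control ECs and 0.627 to 17.3% and 0.0873 to 17.8% under NOVA2. Carried through the factor of 11.7, they became 0 to 56.5%, 0 to 66.0%, 6.86 to 71.0% and 1.01 to 71.6%. The usual limit for a count of 0, 3 reads of the total, is a one-sided one and so lies below these two-sided bounds, at 8.57% and 12.5% in the control libraries or 52.2% and 62.5% on the corrected scale. All 4 values carried the coverage score OK in the table. The carrying of the factor to control ECs assumes that it is the same there, since a count of 0 shows no factor.

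**Figure D2:**
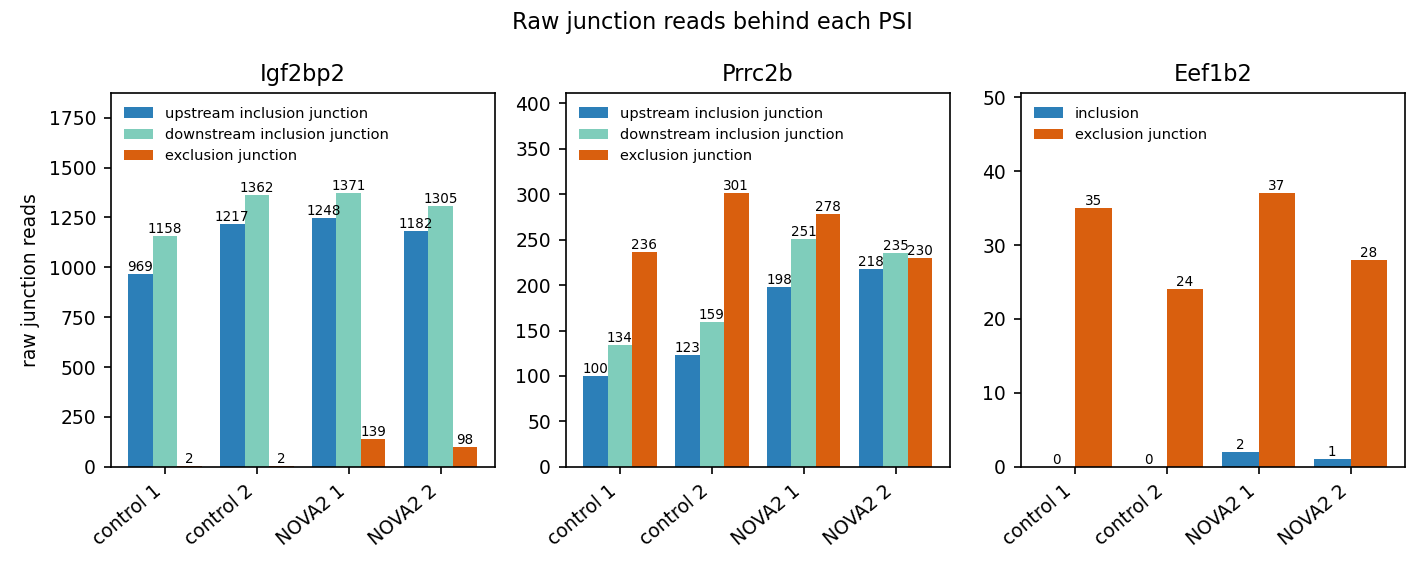
Raw junction reads behind each PSI, as bars per library with the number printed above each. The exclusion junction of Igf2bp2 goes from 2 reads in each control library to 139 and 98 under NOVA2, the Prrc2b inclusion junctions are higher in both NOVA2-overexpressing libraries, and Eef1b2 has at most 2 inclusion reads in any library.

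Eef1b2 was not the only exon with hardly any inclusion reads. In all, 8 of the 549 cassette exons had at most 2 raw inclusion reads in every library, taken as the mean of both inclusion junctions where an exon has 2 (so at most 4 reads in sum) and as the single inclusion count for the microexons Eef1b2 and Nxt1: Ccdc127, D130020L05Rik, Eef1b2, Lysmd4, Myo6, Nxt1, Pigb and Vps13b. Past 10 points were 2 of them, Eef1b2 and Lysmd4. Lysmd4 had a deposited dPSI of 12.6 points and a raw one of 7.95 points. Eef1b2 had the wider distance between the deposited and the raw value.

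**Figure D3:**
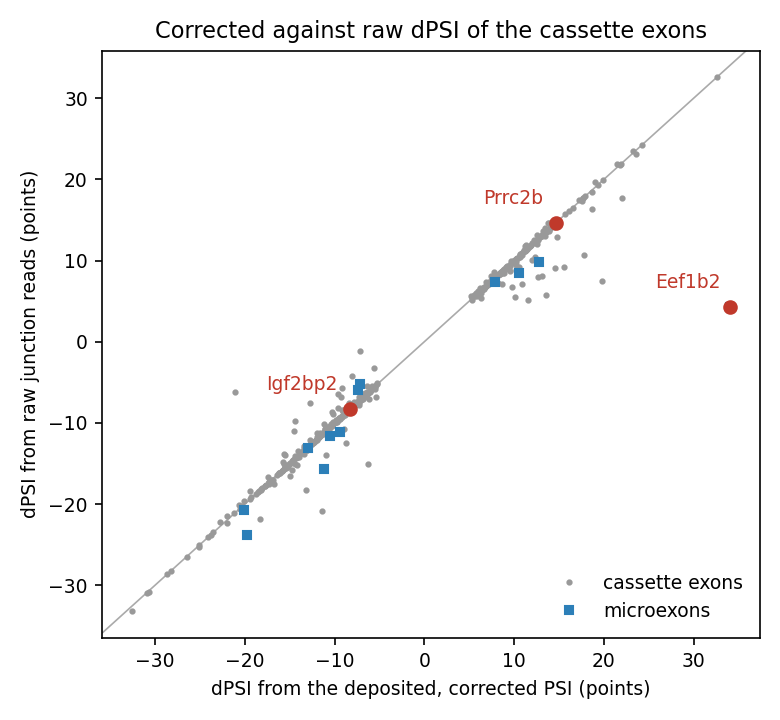
dPSI (NOVA2-overexpressing minus control, in points) of the 549 cassette exons from the deposited PSI (horizontal axis) and from the raw junction reads (vertical axis), with microexons as squares, the 3 described exons as red points and a line of equal values. Igf2bp2 (-8.29 and -8.28) and Prrc2b (14.7 and 14.6) lie on the line, and Eef1b2 (34.0 and 4.29) lies far to the right of it.

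The 3 exons also differed in what the annotation and the reading frame say of them. All 4 annotated transcripts that span the Igf2bp2 exon contain it (2 of them coding), and 0 join its neighbours directly, so that the skipped form seen under NOVA2 is not in this annotation (GENCODE on NCBIM37). Its length is a multiple of the codon, and the coding sequence has 592 codons with it and 569 without it, a loss of 23 codons or 3.89%. The Prrc2b exon is contained in 2 of 6 spanning transcripts, both coding, and 3 transcripts join its neighbours directly. It too keeps the frame, but it is large: 687 of 2230 codons, or 30.8% of the protein, depend on it, and 1543 codons are left without it.

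For Eef1b2, 0 of the 7 spanning transcripts contain the microexon as an exon of its own, although 1 has an exon that starts at its first base and 1 an exon that starts just after its last. The annotated coding exon of 123 nt at chr1:63224328-63224450, in 3 transcripts, lies between the 2 exons that the event joins. Inclusion and exclusion reads alike therefore come from molecules that lack this annotated exon, and 0 annotated transcripts join the flanking exons directly. In the annotated coding sequence of 225 codons, the exclusion form leaves 184 codons. With the microexon, whose 5 nt break the frame, the reading frame ends after 32 codons, 306 nt before the last exon junction. Transcripts that end so early are commonly degraded by nonsense-mediated decay, which these data did not measure. The junction sequences of the inclusion form (35 nt) and of the exclusion form (30 nt) had 0 exact matches in the assembly. So did the junction of the exon before with the annotated exon of 123 nt (30 nt), so this does not set the 2 forms apart. Near matches were not searched, and whether the inclusion reads can be placed uniquely was not tested.

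YCAY motifs were densest in Igf2bp2. The exon holds 8 motifs, counted with overlaps, on the transcribed strand only, and they cover 29 of its 69 nt (42.0%). As the printed sequence shows, 7 of the 8 lie in its last 40 nt. Its density was 11.6 motifs per 100 nt, which 2 of the 549 cassette exons (0.364%), itself included, reached, against a median of 1.66. With 200 nt of intron on each side, 7 motifs lay before it and 8 after it, numbers reached by 12.4% and 5.46% of the cassette exons. The whole stretch held 23, reached by 2.73%, with a median of 9.

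The Prrc2b exon holds 22 motifs, but over its length this is 1.07 per 100 nt, a density that 67.9% of the cassette exons reach. The motifs are spread along it, with 10 of the 22 before its midpoint. The 200 nt before and after it hold 5 and 6 motifs, reached by 29.9% and 17.1%. The Eef1b2 microexon is too short to hold many and holds 0, with 5 motifs in the 200 nt before it (29.9%) and 7 in the 200 nt after it (9.47%). A motif match is a description of sequence, and binding of NOVA2 was not measured here.

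**Figure D4:**
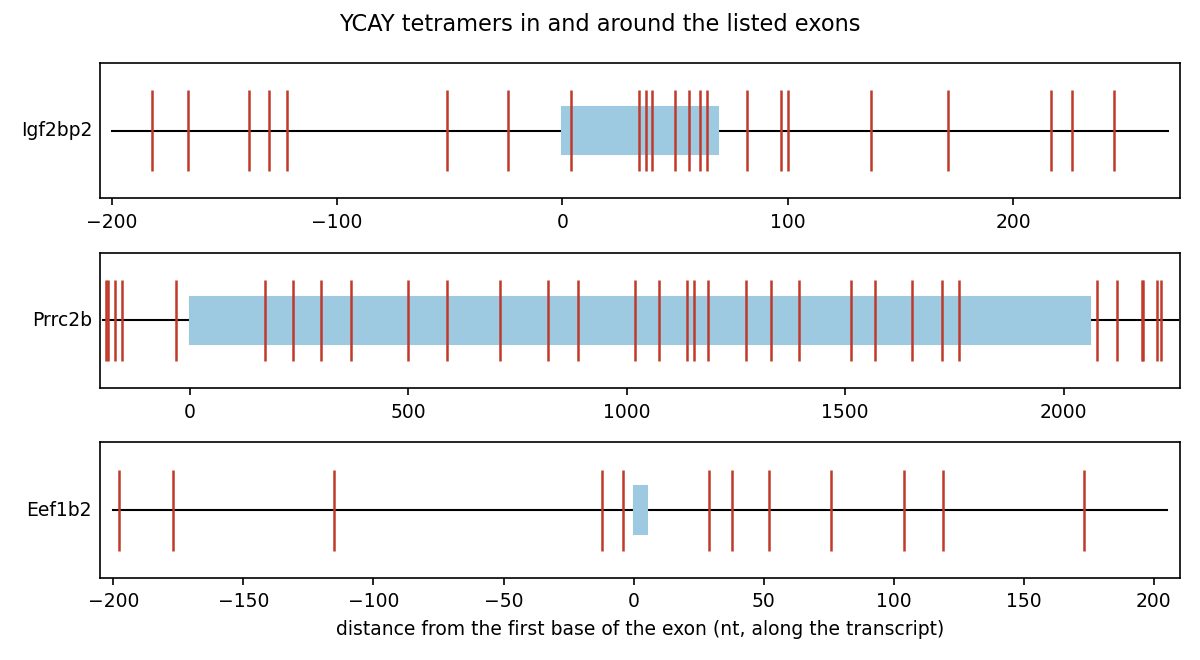
Positions of the YCAY tetramers (red lines) in each listed exon (blue box) and 200 nt of intron on each side, as distance in nt from the first base of the exon along the transcript; the scale differs between the 3 rows. In Igf2bp2, 7 of the 8 exonic motifs crowd into the last 40 nt, while the 22 motifs of the Prrc2b exon are spread along its 2061 nt.

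The coverage of an event was not itself the measure that chose the events. For exons with 2 inclusion junctions and for introns it was the reads divided by 1 + PSI, so PSI enters it. The division keeps an included exon with its 2 junctions from being counted double. Microexons such as Eef1b2, and alternative splice sites, kept their full reads. Coverage was tested with limma on the log2 scale over the 1054 events with at least 10 reads in every library. All 3 events passed this filter. Igf2bp2 had a coverage of 1245 and 1207 per 100000 of the sum over events in control ECs and 1074 and 1055 in NOVA2-overexpressing ECs. Both control libraries were above both others, and the log2 difference was -0.20 ± 0.0665 (SE), with an adjusted p of 0.0448 by limma with Benjamini-Hochberg adjustment. Of all tested events, 6.55% were called, and 3.04% as lower, as Igf2bp2 was. The call did not hold without the filter on low reads (adjusted p = 0.0506) or without any 1 of the 4 libraries, control 1 and 2 and NOVA2 1 and 2 alike (0.0654 to 0.448). It held with median scaling (0.0261) and with a pseudocount of 1 (0.0366). With all reads counted in full the log2 difference was -0.25 (adjusted p by limma = 0.000473). In that total an included molecule counts on 2 junctions and a skipped one on 1. A lower PSI, by which the event was chosen, therefore lowers the total by itself. Unscaled, the Igf2bp2 coverage was 1066 and 1291 reads in control ECs and 1449 and 1342 under NOVA2, in libraries of unequal depth. The scaled value is a share of the listed events, so it also falls where the coverage of other listed events rises. In bulk RNA, fewer cells that use the gene and less of its RNA per cell cannot be told apart, nor can either be told from such a rise.

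For the other two genes the coverage did not pass the test. Prrc2b had a coverage of 412 and 412 per 100000 in control ECs and 372 and 358 under NOVA2, a log2 difference of -0.17 ± 0.0832 (adjusted p by limma = 0.218), which was -0.0051 (0.98) with all reads counted in full. Eef1b2 had a coverage of 40.9 and 22.4 against 28.9 and 22.8, a log2 difference of -0.24 ± 0.261 (adjusted p by limma = 0.681). The Eef1b2 values of the groups overlapped, and without control replicate 1 the sign turned (0.19).

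The balance between the 2 inclusion junctions of an exon, a measure that the choice of events did not use, was compared by a two-sided Fisher's exact test on summed reads, which compares these libraries and not the conditions. In Igf2bp2 the ratio of upstream to downstream reads was 0.867 in control ECs and 0.908 under NOVA2 (exact p = 0.266, adjusted p = 1). In Prrc2b it was 0.761 and 0.856 (exact p = 0.293, adjusted p = 1). Of the 537 exons tested 0% were called after adjustment, and 25 had an unadjusted p under 0.05. Eef1b2, with a single inclusion count, could not be tested.

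Among the other listed events, those closest to each exon in the 4 PSI values (smallest Euclidean distance) were, for Igf2bp2, exons of D17H6S56E-3, Prdm10 and Rfx3, at 0.897, 1.00 and 1.11 points among 536 exons. All 3 had a PSI of 100% in both control libraries and lay between 89.74 and 93.55% under NOVA2. They rested on far fewer reads. Their raw inclusion, the mean of the 2 inclusion junctions, reached at most 19, 31.5 and 18 reads in any library, against 1309.5 for Igf2bp2. For Prrc2b they were exons of Spna2, Sec31a and Slc25a40, at 5.61, 5.79 and 7.42 points. For Eef1b2, among 11 other microexons, they were Kif3a, Spna2 and Vps29 at 25.6, 38.4 and 46.1 points, the nearest of which was Kif3a.

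Relatives and partners of the 3 proteins were mostly absent from the table, which says only that their events were not listed. Of 57 genes in 3 lists, 3 were listed, with 5 events, of which 4 were higher and 1 lower under NOVA2, and 2 and 1 of them passed 10 points. Their median dPSI was 7.57 points, beside 7.51 over all 1075 events, of which 665 were higher and 410 lower. Of the 19 genes of the IGF2BP family and partners only Pabpc1, the cytoplasmic poly(A)-binding protein, was listed, with an alternative 3′ splice site used at 10% and 4% in control ECs and 16.28% and 20.93% under NOVA2, on 20 to 37 reads.

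Of the 23 genes of the PRRC2 family and initiation factors only Atxn2 was listed. Ataxin-2 is an RNA-binding protein that associates with poly(A)-binding protein. Its exon of 210 nt (chr5:122231342-122231551) had a PSI of 89.38% and 93.17% in control ECs and 74.25% and 77.16% under NOVA2, a dPSI of -15.6 points. Its exon of 54 nt (chr5:122256231-122256284) went the other way, at 24.05% and 22.55% against 29.52% and 31.94%, and so did an alternative 5′ splice site, at 39.44% and 39.87% against 47.28% and 47.16%. In each of the 3 events the groups did not overlap, as the filter on the table required.

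Of the 15 genes of translation elongation other than Eef1b2 only Gtpbp2 was listed, a GTPase related to translation factors that helps to rescue stalled ribosomes. Its intron of 313 nt (chr17:46302947-46303259) was retained at 13.73% and 17.65% in control ECs and 25.21% and 26.51% under NOVA2, a dPSI of 10.2 points.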

How the data were processed

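RNA-seq of 2 control and 2 NOVA2-overexpressing libraries was sequenced by the authors as paired-end reads on the HiSeq2500 and processed with vast-tools on mm9. The deposited table gives a percent (PSI) per event and library, computed by the authors from reads corrected for mappability, with a quality string that holds raw and corrected reads. The authors kept events with a dPSI above 5 points between every pair of libraries across groups, so unchanged events are not analysed here. The authors' own dPSI column was not used, nor were 12 further columns of samples outside the comparison.

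All events of Igf2bp2, Prrc2b and Eef1b2 were named, with every listed gene of 3 gene lists (at most 4 events per list) and the 3 nearest events of the same class. The members and lists were chosen with earlier results of these data known. PSI was tested by no test, because it had selected the events, and an exact permutation test of 2 against 2 could not go below p = 0.333 in any case. Depth is the number of reads over the listed events. Library totals were not analysed here. Raw reads gave exact 95% intervals (scipy 1.17.1). For exons with 2 inclusion junctions and for introns the coverage was the reads divided by 1 + PSI, and for other events the full reads. Coverage was scaled to the sum over events, with a pseudocount of 0.5 (limma 3.58.1, R 4.3.3). Junction balance used Fisher's exact test. Tested on simulated data for 537 exons, it recovered 85% of 200 exons changed by an odds ratio of 4 and called 2 of 337 unchanged ones. That change is far larger than the log2 differences of 0.066 (Igf2bp2) and 0.169 (Prrc2b). Recovery of changes as small as these was not tested. Annotation and sequence were NCBIM37 with GENCODE, the build of the table: of 549 exons, 546 were preceded by AG, and 544 were followed by GT and 5 by GC. Alternatives are given in the closing section.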

Additional observations from a re-analysis of the deposited data

How the results depend on the processing

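Of 100 alternative values computed, 76 kept direction and call or, for values with no test, moved by less than the pooled SD of the replicates (for counts, by at most 1.5 times). This says nothing of the size of a tested value. From raw reads, summed reads or a single inclusion junction, the dPSI of Igf2bp2 was -8.65 to -7.94 points. For Prrc2b it was 13.6 to 15.7 points, and both genes moved by less than that SD. These alternatives reuse the reads behind the PSI that chose the events. Although counted above, they show only how far its computation moves the dPSI, and are no independent check. From raw reads the dPSI of Eef1b2 was 4.29 points. With 1 library left out, the dPSI was -9.43 to -7.14 (Igf2bp2), 12.2 to 17.2 (Prrc2b) and 29.4 to 38.7 points (Eef1b2). With 2 libraries per group, leaving 1 out cannot move a dPSI by more than the pooled SD. These values, although counted above, are therefore no check of stability. The log2 coverage of Igf2bp2 was -0.20 both without the filter on low reads and with the replicate number as a block (adjusted p by limma = 0.219), and -0.23 to -0.18 with 1 library left out, all short of the threshold. In such fits the lone library is assumed to vary like the other group. The coverage of Eef1b2 was -0.67 to 0.19 with 1 library left out, and 0.19 without control replicate 1. The coverage of Prrc2b, not called under any alternative, was -0.0051 with both inclusion junctions counted in full. Events called in coverage numbered 69, and 26 to 46 with 1 library left out (37 and 12 to 26 higher, 32 and 14 to 23 lower). Events past 10 points numbered 571, 312 where every library was scored OK or SOK, and 191 at 15 points. Junction balance kept 0 calls, with a log2 difference of 0.069 (Igf2bp2) and 0.18 (Prrc2b) under the replicate block. The block was not used in the report because libraries with the same number did not deviate together (correlation of -0.0191 in coverage and 0.0039 in PSI). YCAY motifs with 100 and 300 nt of intron numbered 14 and 26 for Igf2bp2, 25 and 38 for Prrc2b, and 6 and 19 for Eef1b2. For Eef1b2, single junctions, its balance and a control-based factor could not be computed. Depth limits Eef1b2 most, with 24 to 39 reads per library.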
